A study of Homo sapiens with 9 samples.

Results

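The anion side of cell volume control was followed through 10 genes of 3 families in U-373MG, an established line of human glioblastoma (astrocytoma) cells. The genes were chosen by symbol, as members of the CLIC, CLCN and LRRC8 families: CLIC1 and CLIC4, CLCN2, CLCN3, CLCN5 and CLCN7, and LRRC8A, LRRC8B, LRRC8C and LRRC8D. All 10 were found among the 24462 gene symbols of the count tables, and all 10 were among the 13676 genes tested. The study held 3 groups of 3 libraries: cells given 200 nM of the synthetic peptide CBRV1-10493 for 48 h, cells given 200 nM of the synthetic peptide NnK-1 for 48 h, and untreated control cells, with no time stated. Both peptides derive from jellyfish sequences and are described as resembling ShK, a sea anemone toxin that blocks voltage-gated potassium channels. The same control libraries served both peptides. All values come from 1 cell line. The treated libraries are called biological replicates without saying that each was its own culture, so a p-value here weighs only the scatter among these libraries, part of which may be technical.

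Chloride leaves a swollen cell together with potassium and water, and this loss of volume is used by glioma cells when they divide and squeeze through narrow spaces. The swelling-activated path is the volume-regulated anion channel, a hexamer of LRRC8 proteins in which LRRC8A is obligatory and LRRC8B to LRRC8E are accessory subunits that set which anions and organic osmolytes pass. CLCN genes encode plasma membrane chloride channels as well as chloride/proton exchangers of endosomes and lysosomes. CLIC proteins are soluble proteins related to glutathione transferases that can also associate with membranes.

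The libraries held 11203094 to 13491075 counts, and 15305 to 15968 symbols had at least 1 read in a library. NnK-1 replicate 2 lay apart on the first principal component of log2 CPM at 52.1, where the other libraries ranged from -18.6 to 9.00, and CBRV1-10493 replicate 1 lay apart on the second at -44.9. Of 8 glioma and astrocyte markers 7 had reads, with VIM, NES and CD44 the most abundant and GFAP at 19.7 to 29.0 CPM. ALDH1L1 had no read in any library and AQP4 at most 1 in each. Markers of other cell types were scarce: in the libraries the 4 epithelial markers summed to at most 0.662 CPM, the 4 endothelial to at most 2.31, the 4 immune to at most 5.49 and the 4 neuronal to at most 16.8, while of the oligodendrocyte list MBP had reads in every library (list sum 44.9 to 54.6 CPM).

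CLIC4 was the most abundant of the 10 transcripts and CLCN5 the least. Levels are given as counts divided by the library total and scaled to a total of 1e6 (CPM). The QuantSeq libraries read transcripts near their 3′ end, so CPM were compared between genes without dividing by length. Over the 9 libraries CLIC4 averaged 195.9 ± 14.5 CPM (SD), LRRC8A 128 ± 9.07, CLCN3 108 ± 5.93, CLIC1 59.2 ± 20.5, CLCN2 32.4 ± 5.99, LRRC8D 21.8 ± 3.07, LRRC8B 19.8 ± 1.91, CLCN7 18.2 ± 2.63, LRRC8C 15.3 ± 1.87 and CLCN5 12.3 ± 2.64. CLIC4 exceeded 93.0% of the tested genes in mean CPM and CLCN5 37.4%. CLIC4, LRRC8A and CLCN3 kept this order without overlap: the lowest CLIC4 library (166 CPM) lay above the highest LRRC8A library (143 CPM), and the lowest LRRC8A library (118 CPM) above the highest CLCN3 library (114 CPM). From CLCN3 downwards the ranges of neighbours overlapped, and LRRC8B exceeded CLCN7 in 6 of 9 libraries.

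**Figure D1:**
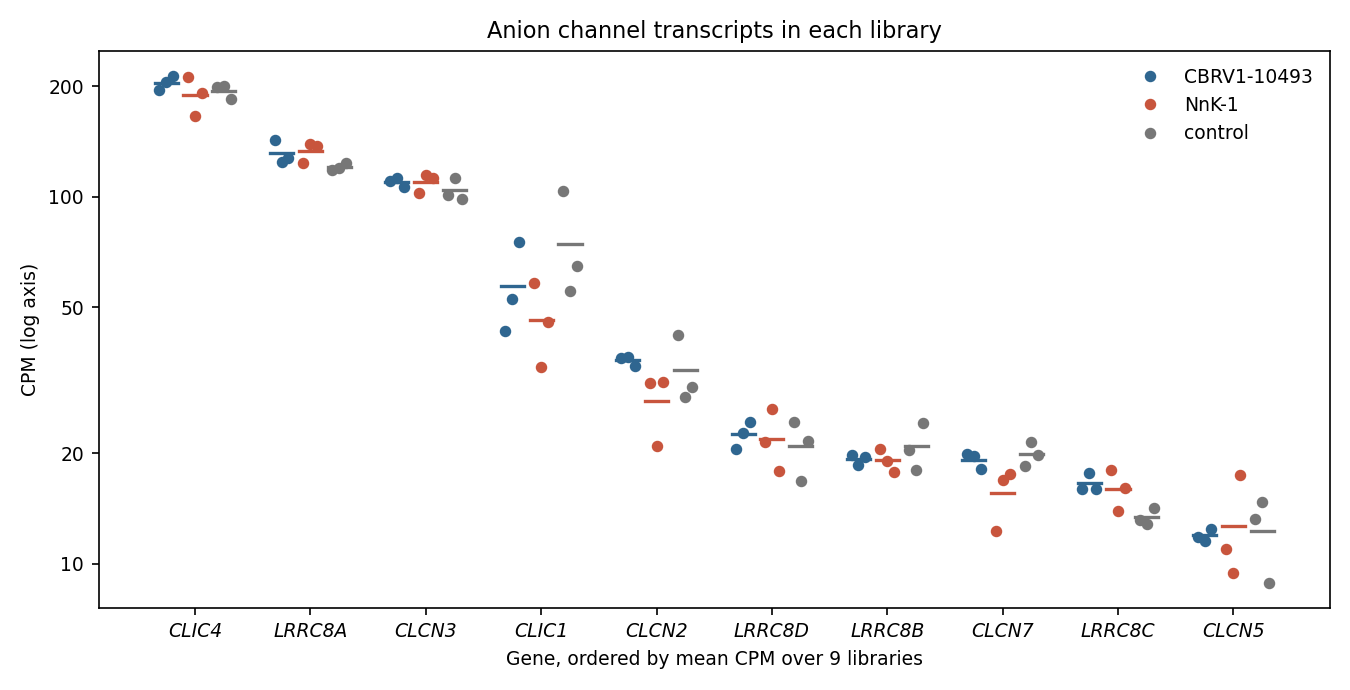
CPM on a log axis for each of the 10 anion channel genes, ordered by mean; points are libraries, bars the mean of the 3 libraries of a group (CBRV1-10493, NnK-1, control from left to right). The CLIC4 group means lie between 189 and 204 CPM, and CLIC1 has the widest scatter, from 34.4 to 103 CPM.

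Other genes of these families were also expressed. Over the 9 libraries CLCN4 averaged 17.5 CPM, more than LRRC8C (15.3) and CLCN5 (12.3) of the 10, CLCN6 9.8 and LRRC8E 9.3. Several had few reads or none. CLIC3 (no read in 9 libraries, which allows up to 0.0824 CPM with CBRV1-10493, 0.0836 with NnK-1 and 0.0781 in control cells) and CLCN1, the chloride channel of skeletal muscle, had no read in any library. CLIC6 had reads in 1 library, and CLIC5 stayed at 1.19 CPM or less. Such a limit is 3 counts over the summed counts of a group and covers counting error alone. The promoters of the most abundant CLIC gene, of the obligatory volume channel subunit and of CLIC3 and CLCN1 are shown to set the measured levels beside the sequence at the start site. Each runs from 250 bases before to 50 after a transcription start in RefSeq (GRCh38.p14), 5′ to 3′ on the gene's strand, with CG dinucleotides in capitals; the first of the listed starts is shown for LRRC8A.
CLIC4 (chr1:24745197-24745496, + strand): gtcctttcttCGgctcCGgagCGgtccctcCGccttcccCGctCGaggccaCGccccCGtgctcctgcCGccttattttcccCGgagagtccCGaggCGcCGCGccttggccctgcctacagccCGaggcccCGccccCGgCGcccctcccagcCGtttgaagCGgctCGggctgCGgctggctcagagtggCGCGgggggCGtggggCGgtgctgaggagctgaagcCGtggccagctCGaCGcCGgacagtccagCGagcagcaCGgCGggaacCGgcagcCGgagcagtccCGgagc
LRRC8A (chr9:128881883-128882182, + strand): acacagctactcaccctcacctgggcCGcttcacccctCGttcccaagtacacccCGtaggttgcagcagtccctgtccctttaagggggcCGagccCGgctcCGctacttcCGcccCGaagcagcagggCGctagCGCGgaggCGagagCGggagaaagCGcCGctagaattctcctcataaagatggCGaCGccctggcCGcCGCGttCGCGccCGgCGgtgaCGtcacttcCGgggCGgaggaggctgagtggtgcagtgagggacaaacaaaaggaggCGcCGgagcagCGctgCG
CLIC3 (chr9:136996519-136996818, - strand): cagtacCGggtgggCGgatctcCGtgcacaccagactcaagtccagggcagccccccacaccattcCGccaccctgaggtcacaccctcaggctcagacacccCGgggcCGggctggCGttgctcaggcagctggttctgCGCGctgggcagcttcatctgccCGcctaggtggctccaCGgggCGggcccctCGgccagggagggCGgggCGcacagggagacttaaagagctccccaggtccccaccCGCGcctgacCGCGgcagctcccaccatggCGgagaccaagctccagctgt
CLCN1 (chr7:143315861-143316160, + strand): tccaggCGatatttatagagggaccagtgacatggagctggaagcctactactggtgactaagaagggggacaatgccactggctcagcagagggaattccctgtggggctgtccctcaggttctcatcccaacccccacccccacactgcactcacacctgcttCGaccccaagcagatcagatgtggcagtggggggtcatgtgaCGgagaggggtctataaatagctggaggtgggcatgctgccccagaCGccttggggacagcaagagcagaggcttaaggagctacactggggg

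The motif counted was CG, which reads the same on both strands. The CLIC4 promoter held 36 CG and that of LRRC8A 31, against 20 in CLIC3 and 4 in CLCN1. Of all 35116 promoters in the table, 12.7% held at least 36 CG, 20.7% at least 31, 41.2% at least 20 and 75.5% at least 4, with a median of 14. Taking the CG-richest listed start of each gene, 9 of the 10 anion channel genes lay above that median, with CLCN7 highest at 49. CLIC1 was the exception at 13. That median counts each start singly, so a gene with several starts had more chances to lie above it. The share over all genes was not computed. Of the 7 other family genes with a promoter, CLIC3 (20), CLIC5 (28), CLCN4 (18), CLCN6 (27) and LRRC8E (29) also lay above it. CLIC2 (3) and CLCN1 (4) lay below. The CG count and the level did not share an order among the 10: CLCN2, at 32.4 CPM, held 44 CG, and LRRC8C, at 15.3 CPM, held 43. These counts are a description of sequence, and no measurement here bears on the promoters directly.

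With NnK-1, no anion channel gene passed the test against control. CLIC1 came closest, with CLCN7 next, both lower with NnK-1, and CLIC4, CLCN3 and the LRRC8 genes lay within 0.28 of 0 on the log2 scale. By edgeR's quasi-likelihood test, 0 of 13676 genes passed at an adjusted p of 0.05 (0% of all genes), 0 of the 10 among them. An unadjusted p under 0.05 was found for 1001 genes (7.32%; 3.76% higher and 3.56% lower with NnK-1) and for 1 of the 10, CLIC1. By the other tools DESeq2 passed 3 genes and limma-voom 0, none of them among the 10. Of the 10 genes 5 lay above 0 and 5 below, with a median log2 ratio (fitted log2 fold change) of 0.03, the median over all genes being 0.003. In bulk counts such as these, fewer cells that express a gene and less of its RNA per cell cannot be told apart. Of the markers of other cell types, the oligodendrocyte list summed to 44.9 to 53.8 CPM with NnK-1 and 49.7 to 54.6 CPM in control libraries. The part of that list in the values of the 10 genes was not tested.

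CLIC1, a redox-sensitive protein linked to a chloride conductance in the membrane of glioblastoma stem cells, had 58.1, 34.4 and 45.5 CPM with NnK-1, against 103, 55.3 and 64.9 CPM in control cells. The groups overlapped at 1 point, NnK-1 replicate 1 lying above control replicate 2. The log2 ratio was -0.67 (95% CI -1.12 to -0.22; edgeR quasi-likelihood unadjusted p = 0.00556, adjusted p = 0.578, exact permutation p = 0.2 on the mean CPM, two-sided, n = 3, where the smallest possible is 0.1). Without control replicate 1 it was -0.37. Without a filter on low counts the same test called CLIC1 lower, as 1 of 74 genes among 18756 tested (0.395%, and 0.251% on the lower side), with a log2 ratio of -0.67 (edgeR quasi-likelihood adjusted p = 7.13e-04); in that fit the prior degrees of freedom were infinite, so that the spread of single genes carried no weight, against 13.6 with the filter.

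CLIC1 had the widest scatter of the 10 genes. Its coefficient of variation over the 9 libraries was 34.6%, above that of 99.8% of the 1306 tested genes whose mean lay within 25% of its own, taken as a factor up or down; their median was 10.9%. It was highest in control replicate 1, which had the most symbols with reads (15968), and lowest in NnK-1 replicate 2, which had the fewest (15305) and lay apart on the first component; the part of these library differences in the CLIC1 result was not tested. Without NnK-1 replicate 2 the NnK-1 log2 ratio was -0.51. CLIC1 is also the 1 of the 10 genes listed on 7 entries of the count table, of which 1 held all its reads. All 60 symbols with 7 entries and reads had them on 1 entry, and over the 42 such symbols tested the median share of similar genes with a lower coefficient of variation was 61.9%, and 6 of the 42 lay above 95% of similar genes. The sources used here do not say how reads aligned to more than 1 place were counted, so its level is uncertain.

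**Figure D2:**
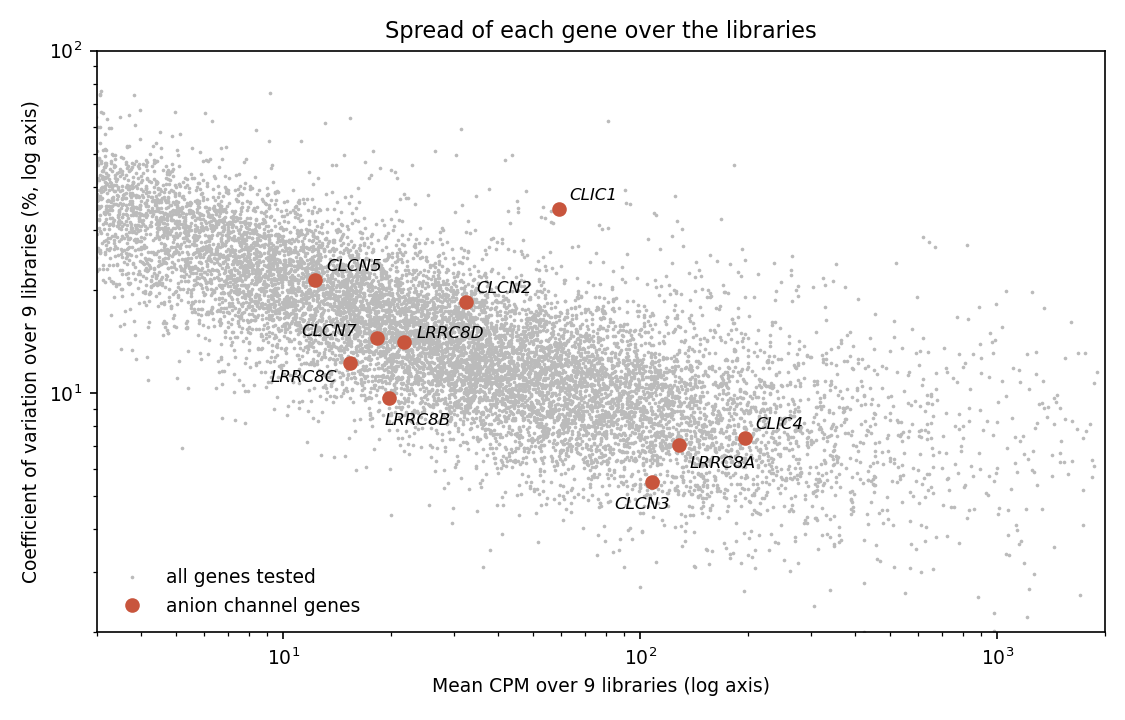
Coefficient of variation over the 9 libraries (%) against mean CPM, both on log axes, for the tested genes that lie inside the axes (grey) and the 10 anion channel genes (red); genes beyond the axes are not drawn. CLIC1 stands at 34.6% and 59.2 CPM, above nearly all genes of its level, while CLCN3 stands at 5.50%.

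CLIC4, a relative of CLIC1 that moves between cytoplasm, membranes and nucleus, had 211, 166 and 191 CPM with NnK-1, against 199, 199.6 and 184 CPM in control cells. The control libraries lay inside the range of the NnK-1 libraries, the lowest again being NnK-1 replicate 2. Its log2 ratio was -0.01 (95% CI -0.21 to 0.19), so that the interval reaches from 0.863-fold to 1.14-fold.

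None of the 4 CLCN genes passed for NnK-1. CLCN7, the lysosomal chloride/proton exchanger, had 12.3, 16.9 and 17.6 CPM with NnK-1, against 18.4, 21.4 and 19.8 CPM in control cells. It was the 1 of the 10 genes whose NnK-1 and control libraries did not overlap, where 13% of all tested genes did not (5.08% higher and 7.92% lower with NnK-1). The log2 ratio was -0.33 (95% CI -0.71 to 0.06; edgeR quasi-likelihood adjusted p = 0.721), or -0.17 when NnK-1 replicate 1 was left out. OSTM1, the β-subunit that CLCN7 needs in the lysosome, averaged 211 ± 11.1 CPM with NnK-1, against 201 ± 9.84 CPM in control cells (log2 ratio 0.10, 95% CI -0.10 to 0.29).

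CLCN2, an inwardly rectifying chloride channel of the plasma membrane that binds GlialCAM in glia, had 31.2, 20.9 and 31.3 CPM with NnK-1, against 42.1, 28.5 and 30.2 CPM in control cells, a log2 ratio of -0.25 (95% CI -0.61 to 0.11). It was -0.06 without control replicate 1, the highest library, and -0.09 without NnK-1 replicate 2, the lowest. CLCN2 overlaps FAM131A in RefSeq (32.7 to 59.4 CPM) and the use of strand in counting is not given, so reads of these genes may not be fully told apart. CLCN3, an endosomal exchanger, had 103, 114 and 112 CPM with NnK-1 against 101, 113 and 98.5 CPM in control cells (log2 ratio 0.11, 95% CI -0.11 to 0.32). CLCN5, the endosomal exchanger whose loss causes Dent disease of the kidney, had 10.996, 9.46 and 17.5 CPM with NnK-1 against 13.2, 14.7 and 8.89 CPM in control cells. Its log2 ratio was 0.07, and its interval, -0.44 to 0.58, was the widest of the 10.

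LRRC8A, the subunit without which no volume-regulated anion channel forms, had 123, 139 and 137 CPM with NnK-1, against 118, 119.5 and 123 CPM in control cells. The groups met at the edge, NnK-1 replicate 1 lying just under control replicate 3. The log2 ratio was 0.17 (95% CI -0.04 to 0.39; edgeR quasi-likelihood adjusted p = 0.728). LRRC8C, an accessory subunit, had 18.0, 13.9 and 16.1 CPM with NnK-1 against 13.2, 12.9 and 14.2 CPM in control cells (log2 ratio 0.28, 95% CI -0.10 to 0.66), with NnK-1 replicate 2 inside the control range. LRRC8B had 20.6, 19.0 and 17.8 CPM with NnK-1, against 20.5, 18.0 and 24.2 CPM in control cells (log2 ratio -0.10, 95% CI -0.45 to 0.25). LRRC8D, the subunit that favours the passage of uncharged osmolytes and of platinum drugs, had 21.5, 26.3 and 17.9 CPM with NnK-1, against 24.3, 16.8 and 21.6 CPM in control cells (log2 ratio 0.09, 95% CI -0.29 to 0.48), the ranges lying over each other. LRRC8A overlaps KYAT1 in RefSeq, counted here under its older symbol CCBL1 at 22.6 to 36.9 CPM, which may share reads with it. LRRC8B, LRRC8C and LRRC8D lie next to each other on chromosome 1, and LRRC8B overlaps LOC128092251, an uncharacterised coding locus of RefSeq whose reads could be shared with it.

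**Figure D3:**
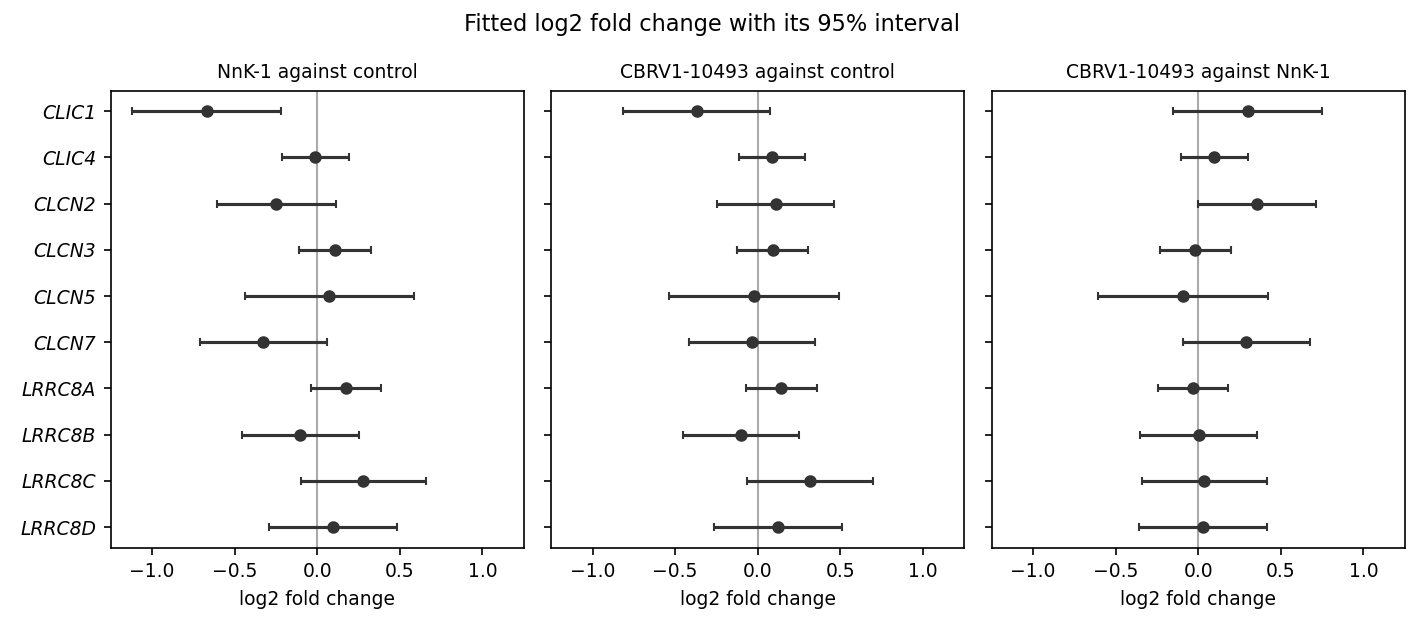
Fitted log2 ratio of each anion channel gene (points) with its 95% CI (bars) in the 3 comparisons; positive values are higher in the group named first. The CLIC1 interval for NnK-1 against control, -1.12 to -0.22, is the only interval in the 3 panels that leaves out 0, and CLIC1 did not pass after adjustment.

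With CBRV1-10493, no anion channel gene passed against control either. LRRC8C and LRRC8A stood higher with CBRV1-10493 in every library than in any control library, with log2 ratios of 0.32 and 0.14, and CLIC1 lay lower on average with overlapping groups. By edgeR's quasi-likelihood test 0 of 13676 genes passed (0%), 0 of the 10 among them; 395 genes (2.89%; 1.34% higher and 1.55% lower) and 0 of the 10 had an unadjusted p under 0.05, and DESeq2 and limma-voom passed 0 genes. Groups did not overlap for 2 of the 10 genes, where 8.88% of all tested genes did not (3.91% higher and 4.96% lower with CBRV1-10493). Of the 10 genes 6 lay above 0 and 4 below, with a median of 0.09 beside 0.003 over all genes.

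LRRC8C had 16.0, 17.7 and 16.0 CPM with CBRV1-10493 and 13.2, 12.9 and 14.2 CPM in control cells. The difference of 3.13 CPM was larger than the SD of either group (0.982 and 0.719). The exact permutation p was 0.1, the smallest that 3 against 3 allows. Every gene whose groups do not overlap has this value, so it adds nothing to the lack of overlap. The log2 ratio was 0.32 (95% CI -0.06 to 0.70; edgeR quasi-likelihood adjusted p = 1.00 and unadjusted p = 0.0967), which reaches from 0.958-fold to 1.62-fold. LRRC8A had 143, 124 and 127 CPM with CBRV1-10493 and 118, 119.5 and 123 CPM in control cells, so that the groups were parted by less than 1 CPM. Its log2 ratio was 0.14 (95% CI -0.07 to 0.36), and 0.07 without CBRV1-10493 replicate 1, which was the highest library and also the one apart on the second component. LRRC8B stood at 19.8, 18.6 and 19.6 CPM and LRRC8D at 20.6, 22.8 and 24.3 CPM with CBRV1-10493, inside or overlapping the control ranges, with log2 ratios of -0.10 and 0.12. LRRC8E, the remaining subunit, averaged 8.85 ± 3.05 CPM with CBRV1-10493, 9.37 ± 2.12 CPM with NnK-1 and 9.61 ± 2.37 CPM in the untreated control cells.

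CLIC1 had 43.2, 52.7 and 75.4 CPM with CBRV1-10493 and 103, 55.3 and 64.9 CPM in control cells. The highest CBRV1-10493 library lay above the lowest pair of control libraries. The log2 ratio was -0.37 (95% CI -0.81 to 0.08; edgeR quasi-likelihood adjusted p = 1.00). Without control replicate 1 it was -0.07, and without CBRV1-10493 replicate 3 it was -0.62. CLIC4 had 195, 205 and 213 CPM with CBRV1-10493, against 199, 199.6 and 184 CPM in control cells (log2 ratio 0.09, 95% CI -0.11 to 0.29).

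No CLCN gene passed with CBRV1-10493. CLCN3 had 110.3, 112 and 106 CPM (log2 ratio 0.09, 95% CI -0.12 to 0.31), and CLCN2 36.4, 36.6 and 34.5 CPM (0.11, CI -0.25 to 0.46). CLCN7 had 19.9, 19.7 and 18.1 CPM (-0.03, CI -0.41 to 0.34) and CLCN5 11.8, 11.5 and 12.5 CPM (-0.02, CI -0.54 to 0.49). The CLCN2 ratio was 0.30 without control replicate 1 and 0.0007 without control replicate 2. In all 4 the CBRV1-10493 libraries overlapped the control libraries. The SD over the CBRV1-10493 libraries was 3.23 CPM for CLCN3, 1.16 for CLCN2 and 0.469 for CLCN5, against 7.52, 7.39 and 3.02 CPM over the control libraries. It was also smaller for CLCN7, CLIC1, LRRC8B and LRRC8D. For LRRC8A (10.1 against 2.79 CPM), LRRC8C (0.982 against 0.719) and CLIC4 (9.14 against 8.78) it was larger. Each SD rests on 3 libraries, and these differences were not tested.

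CBRV1-10493 was also compared directly with NnK-1, both at 200 nM and 48 h, over these 10 genes. CLCN2 and CLCN7 were higher with CBRV1-10493 than with NnK-1 in every library, the remaining 8 overlapped, and none passed. By edgeR's quasi-likelihood test 0 of 13676 genes passed (0%), while 589 (4.31%; 1.96% higher and 2.35% lower) and 0 of the 10 had an unadjusted p under 0.05; DESeq2 and limma-voom passed 0 genes. Groups did not overlap for 2 of the 10 genes, where 8.88% of all tested genes did not (4.71% higher and 4.17% lower with CBRV1-10493). CLCN2 had 36.4, 36.6 and 34.5 CPM with CBRV1-10493 and 31.2, 20.9 and 31.3 CPM with NnK-1. The log2 difference was 0.36 (95% CI -0.003 to 0.71; edgeR quasi-likelihood unadjusted p = 0.0516, adjusted p = 0.994), and 0.20 without NnK-1 replicate 2. CLCN7 had 19.9, 19.7 and 18.1 CPM with CBRV1-10493 and 12.3, 16.9 and 17.6 CPM with NnK-1 (log2 difference 0.29, 95% CI -0.09 to 0.67), and the difference was 0.13 without NnK-1 replicate 1. Both peptide comparisons with control share the control libraries, and the direct differences use the control libraries only in the estimate of the spread.

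For the other 8 genes the log2 difference between the peptides ran from -0.09 (CLCN5, 95% CI -0.61 to 0.42) to 0.30 (CLIC1, CI -0.15 to 0.75). Without CBRV1-10493 replicate 3, the highest CLIC1 library of that group, the CLIC1 difference was 0.05. The 4 LRRC8 genes lay between -0.03 and 0.04, with LRRC8A at -0.03 (CI -0.25 to 0.18), which reaches from 0.843-fold to 1.13-fold. Over the 10 genes and this comparison the intervals reached from 0.656-fold (CLCN5) to 1.68-fold (CLIC1). The narrowest were those of CLIC4 (0.931-fold to 1.23-fold), LRRC8A and CLCN3 (0.851-fold to 1.15-fold).

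LRRC8A supplied most of the LRRC8A to LRRC8D transcripts in every library. LRRC8E, with group means of 8.85 to 9.61 CPM, was left out of these shares. LRRC8A gave 71.7%, 67.7% and 68.0% of the counts of LRRC8A to LRRC8D in the CBRV1-10493 libraries, 67.2%, 70.1% and 72.6% with NnK-1, and 67.1%, 71.5% and 67.3% in control cells. In control replicate 1, for example, 1451 of 2164 counts gave 67.1% (95% exact Clopper-Pearson interval 65.0% to 69.0%, counting error only). LRRC8A transcripts thus outnumbered those of LRRC8B, LRRC8C and LRRC8D together by 2.04-fold to 2.64-fold over the 9 libraries. The LRRC8B share was 10.2 ± 0.265% with CBRV1-10493, 10.1 ± 0.984% with NnK-1 and 11.9 ± 1.21% in control cells. The LRRC8C share was 8.75 ± 0.845% with CBRV1-10493, 8.46 ± 1.40% with NnK-1 and 7.65 ± 0.143% in control cells. The CBRV1-10493 and control libraries did not overlap in this share, which rests on the same LRRC8C counts as the CPM above and is no separate result. At the edge, CBRV1-10493 replicate 1 (8.01%, exact interval 6.96% to 9.17%) and control replicate 3 (7.76%, 6.74% to 8.89%) had overlapping intervals of counting error. How often such shares fail to overlap was not computed. The LRRC8D share was 11.9 ± 1.39% with CBRV1-10493, 11.5 ± 1.91% with NnK-1 and 11.9 ± 1.88% in control cells (SD, n = 3 each). Summed over the 4 subunits, LRRC8 transcripts stood at 189.7 ± 8.46 CPM with CBRV1-10493, 190.1 ± 7.60 CPM with NnK-1 and 175.5 ± 8.08 CPM in the untreated control cells, with overlapping libraries.

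**Figure D4:**
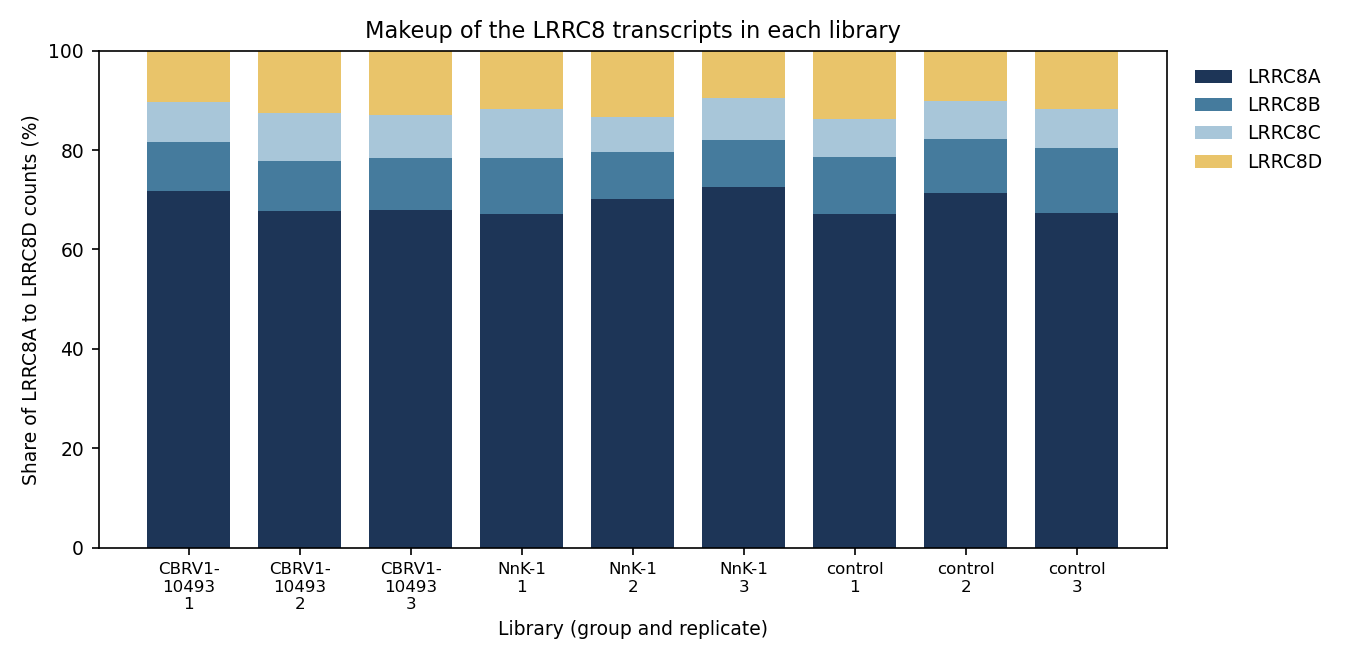
Share (%) of LRRC8A, LRRC8B, LRRC8C and LRRC8D in their summed counts, 1 stacked bar a library. LRRC8A takes 67.1% to 72.6% in every library of all 3 groups.

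Other genes of chloride handling gave no call either. Of 42 genes listed (the remaining CLIC, CLCN and LRRC8 genes with the CLCN partners, other chloride channels, and the kinases and carriers that set cell chloride), 24 were tested, 8 had no read, and 0 passed in either direction in any comparison by edgeR's quasi-likelihood test, nor had any an unadjusted p under 0.05. With NnK-1 12 lay above 0 and 12 below (median log2 ratio 0.004), with CBRV1-10493 15 above and 9 below (0.04), and between the peptides 12 above and 12 below (0.007). The most abundant of the other chloride channels was TTYH3, a tweety family protein, at 183 ± 49.4 CPM with CBRV1-10493, 179 ± 60.8 CPM with NnK-1 and 200.5 ± 25.4 CPM in the untreated control cells. The most abundant of the kinases and carriers was the chloride-sensing kinase WNK1, at 149 ± 2.60 CPM with CBRV1-10493, 136 ± 10.5 CPM with NnK-1 and 142 ± 8.19 CPM in the untreated control cells. WNK1 was the 1 of the 24 tested genes whose CBRV1-10493 and NnK-1 libraries did not overlap, beside 8.88% of all tested genes; its log2 difference was 0.12 (95% CI -0.08 to 0.32), and 0.07 without NnK-1 replicate 2 and CBRV1-10493 replicate 1.

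CLNS1A, a protein once proposed as a swelling-activated chloride channel and now known for its part in assembling the splicing machinery, had the smallest unadjusted p of the list of other chloride channels for NnK-1. It had 167, 159 and 150 CPM with NnK-1, against 130, 148 and 146 CPM in control cells, without overlap (log2 ratio 0.19, 95% CI -0.01 to 0.40, edgeR quasi-likelihood adjusted p = 0.688). It was the 1 of the 24 tested genes whose NnK-1 and control libraries did not overlap, beside 13% of all tested genes (5.08% higher). For CBRV1-10493 against control 1 of the 24 did not overlap, on the lower side, beside 8.88% of all tested genes. TMEM206, the acid-activated chloride channel, had the smallest unadjusted p of the other chloride channels for CBRV1-10493. It stood at 16.1 ± 4.90 CPM against 13.46 ± 1.85 CPM in control cells (log2 ratio 0.27, CI -0.21 to 0.75). The ratio was 0.07 without CBRV1-10493 replicate 1 and 0.50 without CBRV1-10493 replicate 3. SLC12A4, a potassium-chloride cotransporter that lowers cell volume, had the smallest among the kinases and carriers for both peptides, at 27.9 ± 1.99 CPM with CBRV1-10493, 29.3 ± 3.42 CPM with NnK-1 and 25.3 ± 3.10 CPM in the untreated control cells, with log2 ratios of 0.16 and 0.24. Of the remaining family genes, CLCN6, a late endosomal exchanger, averaged 10.2 ± 2.11 CPM with CBRV1-10493, 10.3 ± 1.72 CPM with NnK-1 and 8.82 ± 3.33 CPM in the untreated control cells, and CLIC2 0.743 ± 0.930, 0.864 ± 0.544 and 1.18 ± 0.348 CPM in the same order, all with overlapping libraries.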

How the data were processed

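QuantSeq 3′ libraries of 9 U-373MG samples, 3 each with CBRV1-10493, NnK-1 and no treatment, were read in single-end reads of 75 bp, from 500 ng of RNA each, per the labels. The submitters' processing notes name Bowtie2, bedtools and hg19; the sources used here give no versions, annotation, strand use or handling of multiply aligned reads. The deposited values are counts of reads for each gene symbol, not normalized, with a file for each library. Entries of the same symbol were summed (25737 entries, 24462 symbols). Genes passing filterByExpr at its defaults (minimum count 10, minimum total 15) were scaled by TMM and fitted with edgeR 4.0.16 (quasi-likelihood, 1 coefficient per group, all 9 libraries, R 4.3.3), with two-sided tests, Benjamini-Hochberg adjustment over the 13676 genes and a threshold of 0.05. Printed CPM use library totals. Alternatives used DESeq2 1.42.0, limma 3.58.1 (voom), other scalings and filters, a replicate block and each library left out. The fit was tested on simulated data. The anion channel genes and all lists were chosen with earlier results of these data known; named besides were LRRC8E, OSTM1 and, per list, the most abundant gene and that with the smallest unadjusted p in each comparison. No libraries agreed within sampling noise. Some genes of the lists are not reported here by name.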

Additional observations from a re-analysis of the deposited data

How the results depend on the processing

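Alternatives were 20 settings for each log2 ratio, and 19 for CLIC2. Of 200 such values for the 10 anion channel genes in each comparison, 190 kept their direction for NnK-1 against control, 192 for CBRV1-10493 against control and 180 for CBRV1-10493 against NnK-1. Some settings could hardly move a ratio, such as leaving out a library of the group not compared. For NnK-1 against control, CLIC1 stayed at -0.67 without CBRV1-10493 replicate 1, 2 or 3. Part of these counts was thus fixed in advance. With no filter on low counts, edgeR called 74 of 18756 genes (0.395%) for NnK-1 against control (27 higher, 47 lower), 1 of the 10 anion channel genes among them, 6 for CBRV1-10493 against control (1 higher, 5 lower) and 1 between the peptides. DESeq2 called 3 for NnK-1 against control (1 higher, 2 lower). Correlations of same-numbered libraries, taken on their deviations from the group means, ran from -0.0566 to 0.132. Differently numbered libraries were not set beside them, so these values do not settle whether the samples were paired. With a replicate block 0 genes were called in each comparison, CLIC1 having a log2 ratio of -0.66 for NnK-1 (edgeR adjusted p = 0.661). Leaving out both NnK-1 replicate 2 and CBRV1-10493 replicate 1 was chosen after seeing the data and gave 0 called genes in each comparison.

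In settings that kept all libraries, signs turned only where values lay near 0. With a library left out they also turned for larger values, such as CLIC2 for NnK-1 against control (-0.42 with all libraries) and LRRC8D for CBRV1-10493 against control (0.12). The cause was not tested. The turned values with all libraries kept were these. LRRC8E for NnK-1 against control was 0.0168 by limma-voom and 3.70e-04 with the replicate block, and CLCN5 for CBRV1-10493 against control 0.0150 by limma-voom. Between the peptides LRRC8B was -0.00396 with DESeq2's size factors, -0.00102 with no filter, -0.00401 by DESeq2 and -0.00464 with the largest entry of each symbol, and CLCN3 was 0.00291 with upper-quartile factors. OSTM1 there was 0.0182 with upper-quartile factors, 0.0117 with library totals, 5.74e-04 with at least 5 CPM in 3 libraries and 8.00e-04 by limma-voom.

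With libraries left out, the log2 ratios for NnK-1 against control ran from -0.0839 to 0.0624 for CLIC4, -0.233 to 0.230 for CLCN5, -0.200 to 0.0229 for LRRC8B, -0.0755 to 0.223 for LRRC8D, -0.196 to 0.134 for LRRC8E and -0.794 to 0.0206 for CLIC2. Those for CBRV1-10493 against control ran from -0.206 to 0.125 for CLCN5, -0.0907 to 0.0188 for CLCN7, -0.199 to 0.0245 for LRRC8B, -0.0151 to 0.236 for LRRC8D and -0.422 to 0.0720 for LRRC8E. Between the peptides they ran from -0.0760 to 0.0289 for CLCN3, -0.253 to 0.211 for CLCN5, -0.103 to 0.0159 for LRRC8A, -0.0485 to 0.0432 for LRRC8B, -0.0391 to 0.117 for LRRC8C, -0.102 to 0.252 for LRRC8D, -0.556 to 0.0803 for LRRC8E, -0.0567 to 0.0414 for OSTM1, -2.03 to 0.368 for CLIC2 and -0.316 to 0.0980 for CLCN6. The number of libraries, 3 a group, limited the precision of these ratios.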
